A study of Mus musculus with 12 samples.

Results

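The genes described here encode the contractile machinery of heart and smooth muscle, measured in cardiac precursors grown from C57BL/6 mouse embryonic stem cells. They are 38 genes chosen by symbol from a table of 35856 gene rows: 31 cardiac and striated muscle genes and 7 smooth muscle genes. The cells came from 3 lines, in each of which 1 subunit of PRC2, the Polycomb complex that methylates histone H3 and keeps developmental genes silent, was fused to an auxin-inducible degron (AID). All lines also carry Tir1, the plant protein through which auxin directs a tagged protein to degradation. The groups were SUZ12-AID cells with auxin and untreated, MTF2-AID cells with auxin and untreated, and AID-JARID2 cells with auxin and untreated, with 2 libraries each. Auxin was indole-3-acetic acid at 50 µM, and the time of its addition is not given in the sources used here. All cells passed through 48 h of embryoid bodies, 43 h of reaggregation and 32 h of monolayer culture. Each subunit had a single tagged line, and no untagged line with auxin was analysed here, so an effect of auxin itself or of the line cannot be told apart from loss of the subunit.

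In a sarcomere, the contractile unit of striated muscle, thick filaments of myosin pull on thin filaments of actin, while troponin and tropomyosin on the thin filament let calcium switch the pull on and off. Smooth muscle has actin and myosin without sarcomeres and regulates them through myosin light chain phosphorylation and proteins such as calponin. Early heart cells express several smooth muscle genes for a time, and they use atrial and slow skeletal isoforms of some sarcomere proteins before the adult ventricular forms.

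Values are TPM, which scale reads for transcript length and library size, so levels of different genes can be set side by side. The table implied at least 10138920 to 17173072 assigned reads per library, and 18964 to 21026 genes were above 0 in each. Jarid2 RNA stood at 104 and 113 TPM in AID-JARID2 auxin cells, against 45.3 and 43.5 TPM in untreated ones. Suz12 RNA stood at 106 and 109 TPM in SUZ12-AID auxin cells, against 113 and 127 TPM untreated, and Mtf2 RNA at 26.0 and 24.7 TPM in MTF2-AID auxin cells, against 22.4 and 21.7 TPM untreated. Since auxin removes protein and not RNA, these levels do not check depletion. Of 12 cardiac precursor markers none was at 0 in both libraries of any group. The same held for pluripotency, fibroblast and mesenchyme, and surface ectoderm markers, so it does not tell these cell types apart. The 7 skeletal myogenic markers summed to 0.310 to 1.54 TPM, with Myf6 at 0 in both libraries of every group and Myog in 5 of the 6.

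Promoter windows from RefSeq on GRCm38.p6, running from 250 bases before to 50 bases after each transcript start listed for a gene, were listed for 34 of the 38 genes. They were searched for the CArG box, the site of serum response factor (SRF), the factor best known for driving actin and other contractile genes. The box is a palindrome, so both strands are covered. It stood in at least 1 window of 7 of the 34 genes (20.6%), against 488 of 27025 genes in the whole table (1.81%), or 8 of 45 windows (17.8%) against 535 of 32851 (1.63%). The 7 stretches are shown because they hold the match in actin, myosin light chain and Z-disc genes whose values follow, with 25 bases on either side and the box in capitals.
Actc1: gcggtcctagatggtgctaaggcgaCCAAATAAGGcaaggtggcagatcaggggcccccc
Acta1: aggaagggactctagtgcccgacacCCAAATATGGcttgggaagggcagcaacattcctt
Myl3: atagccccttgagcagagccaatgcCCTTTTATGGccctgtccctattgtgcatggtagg
Myl7: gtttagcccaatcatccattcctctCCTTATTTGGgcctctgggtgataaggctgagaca
Myl9: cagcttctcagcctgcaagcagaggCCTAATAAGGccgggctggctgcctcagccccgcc
Ldb3: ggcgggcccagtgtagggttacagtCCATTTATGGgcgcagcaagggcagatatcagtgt
Nebl: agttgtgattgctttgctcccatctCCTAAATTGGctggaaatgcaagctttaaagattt
On GRCm38.p6 the stretches lie at chr2:114052888-114052947 on the minus strand for Actc1, chr8:123894814-123894873 on the minus strand for Acta1 and chr9:110763568-110763627 on the plus strand for Myl3. Those of the other genes are chr11:5898809-5898868 (minus) for Myl7, chr2:156775278-156775337 (plus) for Myl9, chr14:34588682-34588741 (minus) for Ldb3 and chr2:17462984-17463043 (minus) for Nebl. Counted from the RefSeq start that defines the window, the box begins 47 bases upstream in Actc1, 73 in Acta1, 85 in Myl3, 61 in Myl7 and 161 in Myl9. The stretches of Actc1, Myl3 and Nebl lie inside the spans of these genes in GENCODE vM21, downstream of its outermost start. A MEF2 site, searched on both strands in the same windows, was matched in Ttn, Mybpc3 and Casq2 alone among the 34, against 2.16% of all genes. A match is a description of the letters and not a bound site.

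The members covered a wide range of levels. Tpm1, a tropomyosin also used outside striated muscle, was highest with a mean of 412 TPM over the 12 libraries, followed by the calcium pump gene Atp2a2 (158 TPM), the slow troponin I gene Tnni1 (99.96 TPM), the smooth muscle gene Tagln (94.97 TPM) and the cardiac troponin T gene Tnnt2 (94.3 TPM). Several genes of the working myocardium were close to or at 0. Smpx, a small muscle protein of the X chromosome, was listed at 0 in all 12 libraries, and the phospholamban gene Pln, the calsequestrin gene Casq2 and the atrial peptide gene Nppa never passed 0.471 TPM. The giant spring protein gene Ttn reached 0.399 TPM, the smooth muscle myosin gene Myh11 0.888 TPM, the thick filament gene Mybpc3 0.910 TPM and the ventricular light chain gene Myl2 1.00 TPM. These 8 genes missed the filter for testing, at least 1 TPM in at least 2 libraries, which 30 of the 38 passed (24 cardiac, 6 smooth muscle). Of the 8, Ttn and Myh11 were above 0 in all 12 libraries, with 1555 and 179 implied reads, so low TPM is not absence. Ttn has 116825 exonic bases in GENCODE vM21, and TPM divides reads by transcript length. Tpm1, Tpm2, Des and Cacna1c are counted here as cardiac and are also used in smooth muscle.

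**Figure D1:**
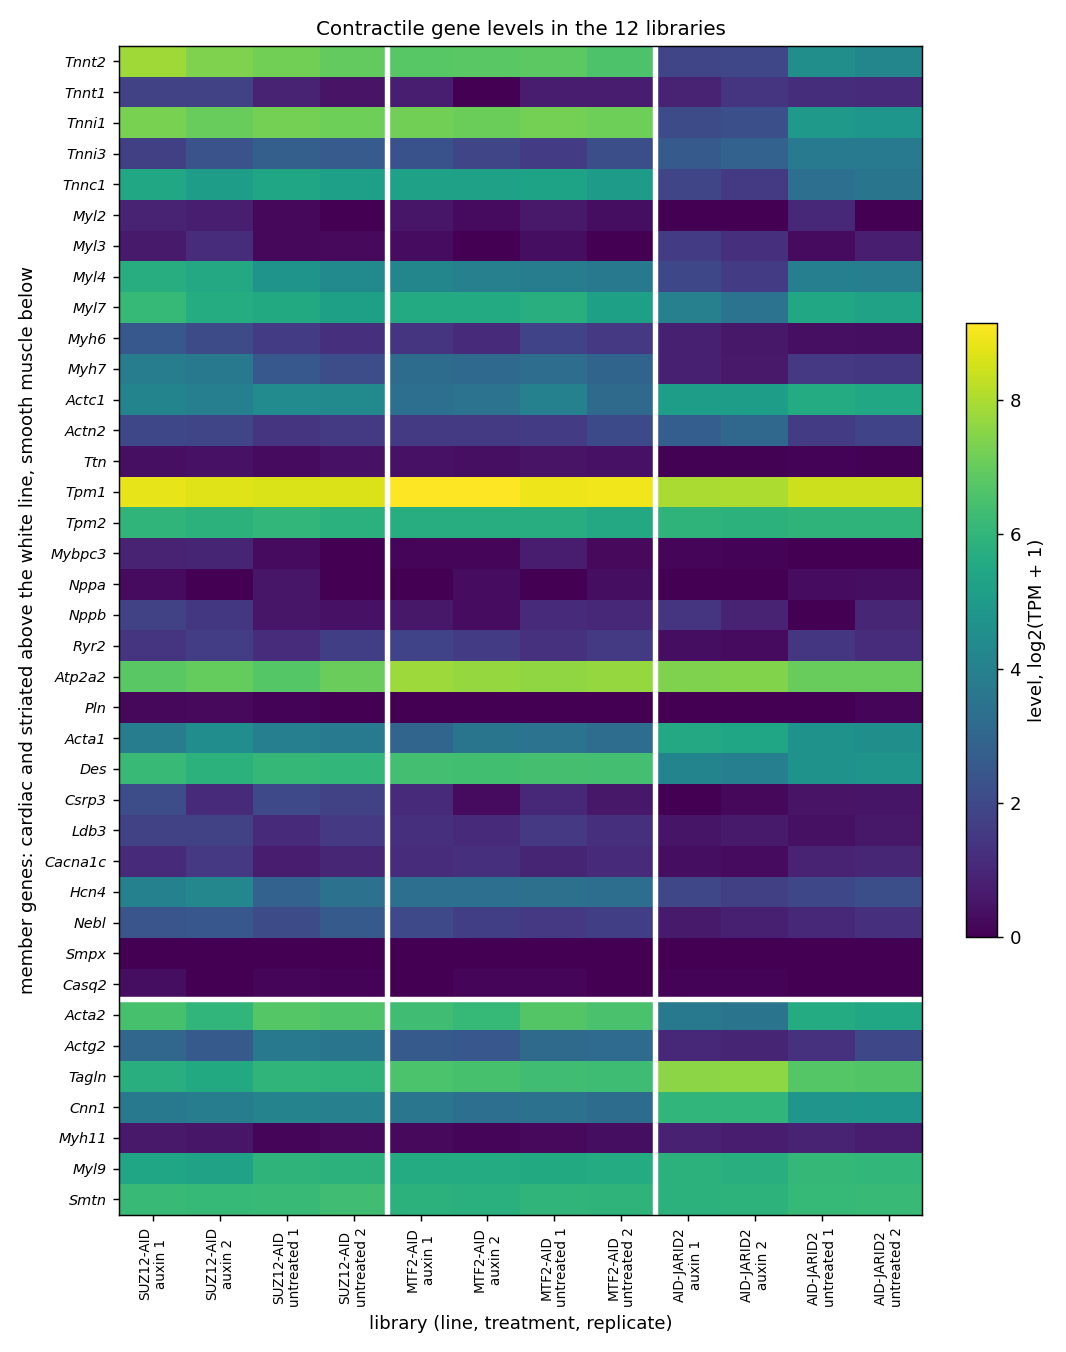
Heat map of log2(TPM + 1) for all 38 genes in rows and the 12 libraries in columns, auxin libraries left of untreated ones within each line. The Tnnt2 and Tnni1 rows are dark in the AID-JARID2 auxin libraries (2.72 to 3.64 TPM) and bright in the 8 libraries of the other lines (94.3 to 226 TPM), while Tagln is brightest in AID-JARID2 auxin cells.

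The auxin comparison in AID-JARID2 moved both muscle groups, and each in both directions. Of the 24 tested cardiac genes 11 fell (Tnnt2, Tnni1, Tnni3, Tnnc1, Myl4, Myl7, Myh7, Tpm1, Ryr2, Des and Cacna1c) and 4 rose (Myl3, Actn2, Atp2a2 and Acta1). Myl3 passed the filter for testing only through the auxin libraries of this line. Of the 6 tested smooth muscle genes 4 fell (Acta2, Actg2, Myl9 and Smtn) and 2 rose (Tagln and Cnn1). Among all 15663 genes tested, 17.0% fell and 19.5% rose at the same threshold, a limma adjusted p under 0.05. The falls were thus a larger share of either group than of all genes, and so were the smooth muscle rises, at 2 of 6. The rises of the cardiac group were near the share in all genes. Members were chosen with earlier results of these data known, so these shares are not an independent test. Without auxin replicate 1 or auxin replicate 2 the 4 cardiac genes called higher became 2, and without either of these or untreated replicate 2 the 4 smooth muscle genes called lower became 2. The median log2 fold change was -0.42 over the tested cardiac genes and -0.26 over the smooth muscle genes, against 0.01 over all genes. The summed level of the 31 cardiac genes was 616 to 620 TPM with auxin and 764 to 774 TPM untreated, and that of the 7 smooth muscle genes 377 to 378 TPM with auxin and 309 to 315 TPM untreated. Most of the cardiac sum is Tpm1 and Atp2a2, so it says little of the lower genes. The smooth muscle sum rose with Tagln and Cnn1, while 4 of the 6 tested genes fell.

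Markers of other states moved with these groups in AID-JARID2. The 10 pluripotency markers summed to 3351 to 3403 TPM with auxin and 794 to 800 TPM untreated, with 9 called higher and 1 lower. The 12 cardiac precursor markers summed to 418 to 490 TPM with auxin and 2701 to 2784 TPM untreated, with 10 of 11 tested called lower, and Nkx2-5 not called. The 10 fibroblast and mesenchyme markers summed to 36.1 to 36.4 TPM with auxin and 122 to 124 TPM untreated (2 called higher, 4 lower of 9 tested). The 10 endothelial markers summed to 85.4 to 90.3 TPM with auxin and 214 to 224 TPM untreated (2 higher, 3 lower), with Emcn at 0 in all 4 libraries. Surface ectoderm markers summed to 1822 to 1951 TPM with auxin and 2202 to 2309 TPM untreated. Of these 10 markers 7 were called higher and 2, Krt8 and Krt18, lower. Their median log2 fold change was 1.48, so the sum does not follow most of them. The part of these shifts in the contractile results was not tested, and in bulk RNA fewer cells of a type and less RNA per cell cannot be told apart.

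The auxin comparison in SUZ12-AID gave smaller changes, and its calls were upwards in cardiac genes and downwards in smooth muscle genes. Cardiac genes without a call went both ways, with Tnni3 at -0.66 and Actc1 at -0.35 on the log2 scale. Of the 24 tested cardiac genes 7 rose (Tnnt2, Tnnt1, Myl4, Myh6, Myh7, Nppb and Hcn4) and 0 fell, where 15.1% of all genes rose and 4.05% fell. The cardiac genes at an unadjusted p under 0.05 numbered 14 in either direction, where 4862 of all 15663 genes had one. Of the 6 tested smooth muscle genes 0 rose and 3 fell (Actg2, Tagln and Myl9), and 5 had an unadjusted p under 0.05. The median log2 fold change was 0.39 over tested cardiac genes and -0.37 over smooth muscle genes, against 0.06 over all genes. Of all calls 2362 were higher and 635 lower, but the split was 2155 against 1376 when libraries were scaled by the median of ratios and 1605 against 1418 after quantile normalization. Surface ectoderm markers summed to 4162 to 4622 TPM with auxin and 2432 to 2562 TPM untreated, with 9 of 10 called higher. Pluripotency markers summed to 320 to 398 TPM with auxin and 179 to 199 TPM untreated (8 of 10 higher), and endothelial markers to 331 to 344 TPM with auxin and 242 to 269 TPM untreated (8 of 10 higher, 1 lower). The cardiac precursor markers summed to 1540 to 1625 TPM with auxin and 2629 to 2944 TPM untreated. Of 11 tested, 5 were called higher and 1, Hand1, lower. Most of this sum is Hand1, with means of 1033 TPM with auxin and 2421 TPM untreated, so it says little of the other markers. The fibroblast and mesenchyme markers summed to 138 to 142 TPM with auxin and 159 to 187 TPM untreated (2 higher, 1 lower of 9 tested). The part of these shifts in the contractile results was not tested.

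The SUZ12-AID calls depended on which libraries were fitted. The AID-JARID2 libraries fitted alone gave 3448 of all genes higher and 2948 lower. With the 4 SUZ12-AID libraries fitted alone 0 cardiac genes were called higher and 0 smooth muscle genes lower, where 129 of all genes were called higher and 27 lower. With the full set, the count of 7 cardiac genes became 3 without auxin replicate 1, 4 without auxin replicate 2 and 3 without untreated replicate 2, and the count of 3 smooth muscle genes became 1 without auxin replicate 2.

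In MTF2-AID 0 of the 30 tested genes were called in either direction with limma, where 0.0447% of all genes rose and 0.0192% fell (7 and 3 genes). At an unadjusted p under 0.05 there was 1 cardiac gene (Tpm1) and there were 3 smooth muscle genes (Acta2, Actg2 and Tagln), where 1489 of all 15663 genes had one. The log2 fold changes of the tested genes ran from -0.64 in Actg2 to 0.31 in Ryr2. Tpm1 stood at 562 and 558 TPM with auxin and 478 and 490.5 TPM untreated (log2 fold change 0.21, adjusted p = 0.107), and its 2 groups did not overlap. Of the markers of other cell types 1 was called in this line, the keratin gene Krt8. At an unadjusted p under 0.05 there were 8 of 10 endothelial markers, which summed to 219 to 229 TPM with auxin and 300 to 301 TPM untreated, and 7 of 10 surface ectoderm markers, and their part in the contractile values was not tested.

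**Figure D2:**
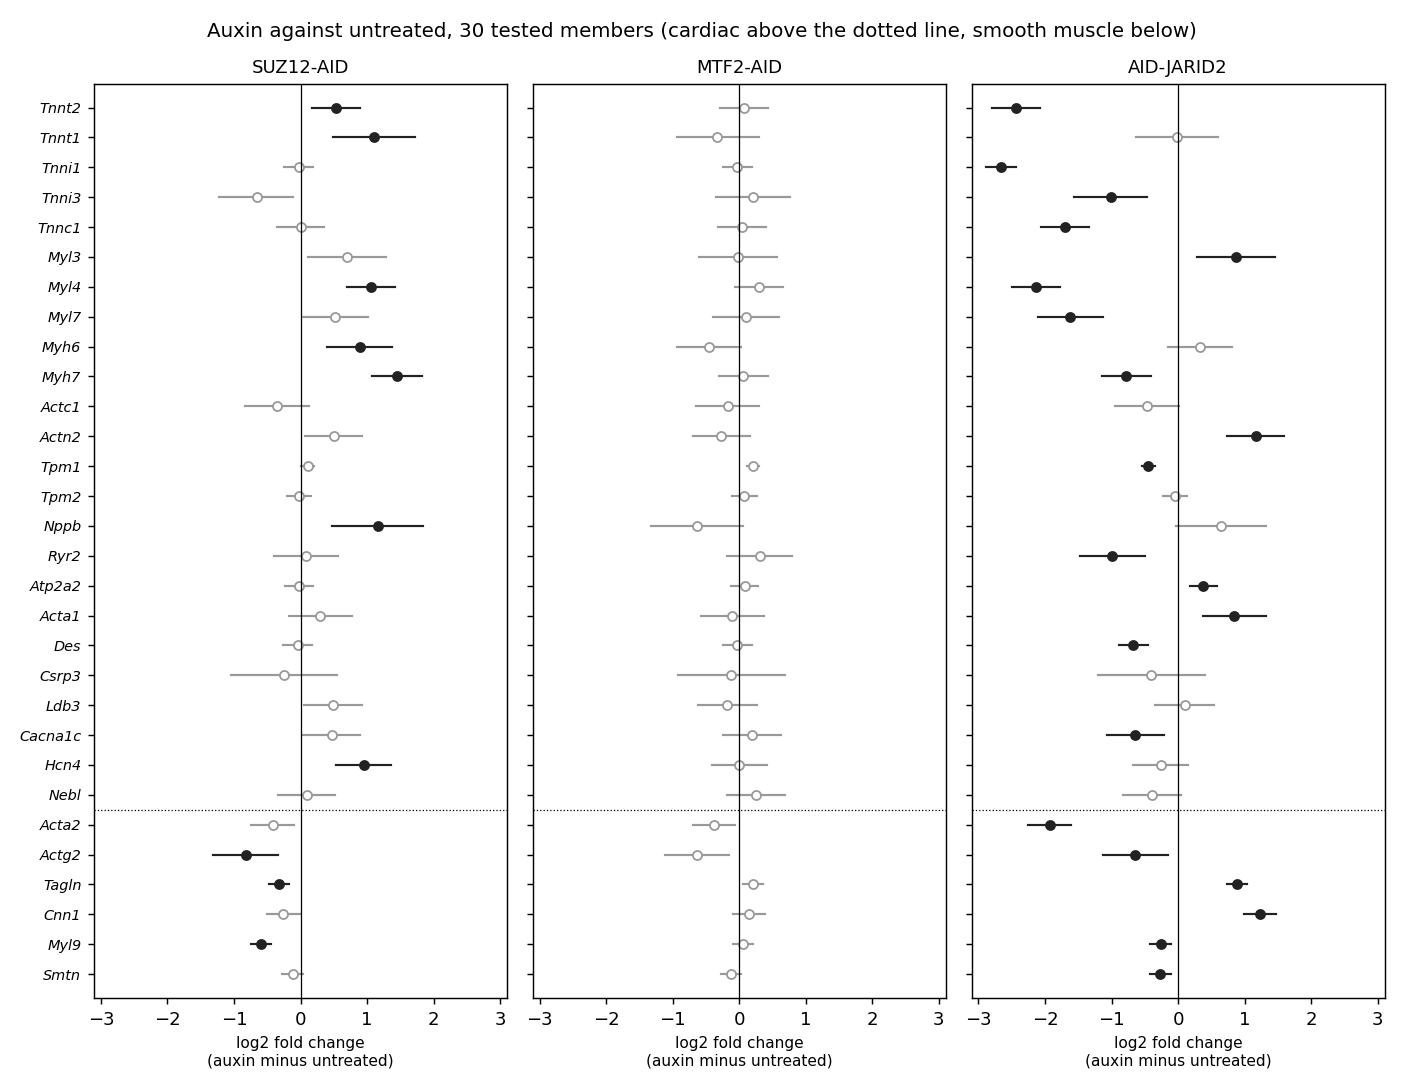
Log2 fold change of auxin over untreated (x axis) for the 30 tested genes (y axis) in each line, with 95% confidence intervals of the limma fit and filled points for adjusted p under 0.05. In AID-JARID2 the filled points run from -2.66 in Tnni1 to 1.23 in Cnn1, in SUZ12-AID from -0.82 in Actg2 to 1.45 in Myh7, and MTF2-AID has none.

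The troponin complex, which senses calcium on the thin filament, held the 2 deepest falls in AID-JARID2. Tnnt2, cardiac troponin T (chromosome 1, 135836354 to 135852260, plus strand, mm10), had 2.72 and 2.81 TPM in AID-JARID2 auxin cells, against 22.0 and 17.2 TPM in untreated ones. Both auxin libraries lay far below both untreated ones (log2 fold change -2.44, SE 0.161, adjusted p = 1.77e-06). In SUZ12-AID the same gene had 226 and 166 TPM with auxin, against 146 and 122 TPM untreated. These groups did not overlap, but the auxin libraries differed by more than the gap between the groups (log2 fold change 0.54, SE 0.161, adjusted p = 0.0423). This call was lost in 12 of 22 alternatives, among them leaving out auxin replicate 1 (0.31, adjusted p = 0.245) or untreated replicate 2 (0.41, adjusted p = 0.154) of SUZ12-AID. It was also lost without AID-JARID2 auxin replicate 1 (adjusted p = 0.0604) or 2 (0.0603), or without MTF2-AID auxin replicate 1 or 2 (0.0626 each). In MTF2-AID Tnnt2 had 107 and 111 TPM with auxin and 115 and 94.3 TPM untreated, which overlapped.

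Tnni1, slow skeletal troponin I, which is the troponin I of the early heart, lies 25364 bases from Tnnt2 on the same strand. It had 3.40 and 3.64 TPM in AID-JARID2 auxin cells, against 28.8 and 26.6 TPM untreated. The groups stood well apart (log2 fold change -2.66, SE 0.0988, adjusted p = 3.69e-08), the largest fall of any tested member. In the other lines Tnni1 stayed between 127 and 156 TPM with overlapping groups. Tnnc1, troponin C of heart and slow muscle, had 2.78 and 1.96 TPM in AID-JARID2 auxin cells, against 9.04 and 10.8 TPM untreated, again without overlap (log2 fold change -1.70, SE 0.161, adjusted p = 2.27e-05). In SUZ12-AID it had 42.9 and 33.0 TPM with auxin and 40.5 and 35.01 TPM untreated, and in MTF2-AID 36.1 and 36.3 TPM with auxin and 38.3 and 32.4 TPM untreated, and both pairs of groups overlapped.

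Tnni3, the adult cardiac troponin I, differed from Tnni1 in level and in pattern. It had 5.04 and 6.375 TPM in AID-JARID2 auxin cells, against 12.3 and 12.7 TPM untreated (log2 fold change -1.01, SE 0.249, adjusted p = 0.00967). The untreated AID-JARID2 libraries were the highest of all 12. The AID-JARID2 call was lost without auxin replicate 1 (-0.87, adjusted p = 0.073) or untreated replicate 2 (adjusted p = 0.0517). In SUZ12-AID Tnni3 had 2.28 and 4.00 TPM with auxin, against 5.76 and 5.09 TPM untreated, without overlap and without a call (log2 fold change -0.66, adjusted p = 0.0957). In MTF2-AID it had 3.89 and 2.79 TPM with auxin and 2.01 and 3.62 TPM untreated, which overlapped. Tnnt1, slow troponin T, lies 1922 bases from Tnni3 on the same strand and is a low gene, with 107 reads in all libraries together. It had 2.49 and 2.52 TPM in SUZ12-AID auxin cells, against 0.891 and 0.409 TPM untreated (log2 fold change 1.10, adjusted p = 0.0197), and its call was lost without auxin replicate 1 (adjusted p = 0.0676) or 2 (0.102) or untreated replicate 2 (0.0871).

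Of the myosin light chains of early heart muscle, Myl4 fell in AID-JARID2 and rose in SUZ12-AID. This gene, the atrial essential light chain (chromosome 11, 104550663 to 104595753, plus strand), had 2.93 and 2.08 TPM in AID-JARID2 auxin cells, against 14.2 and 14.1 TPM untreated (log2 fold change -2.13, SE 0.162, adjusted p = 5.09e-06). SUZ12-AID cells had 50.5 and 44.35 TPM with auxin, against 25.8 and 19.0 TPM untreated (log2 fold change 1.06, SE 0.162, adjusted p = 0.00167). The groups stood apart in both lines, and the SUZ12-AID call was lost in 1 of 22 alternatives, the fit of that line alone (adjusted p = 0.0658). In MTF2-AID it had 17.1 and 14.8 TPM with auxin and 13.4 and 12.1 TPM untreated, without overlap and without a call (log2 fold change 0.30, adjusted p = 0.62).

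Myl7, the atrial regulatory light chain, had 14.7 and 10.1 TPM in AID-JARID2 auxin cells, against 42.1 and 37.3 TPM untreated (log2 fold change -1.62, SE 0.221, adjusted p = 2.84e-04). Unlike that of Tnnt2, Tnni1 and Tnnc1, its untreated AID-JARID2 level lay among those of the other lines. SUZ12-AID cells had 67.9 and 49.98 TPM with auxin and 46.0 and 35.4 TPM untreated, and in MTF2-AID 46.7 and 46.5 TPM with auxin and 52.5 and 35.8 TPM untreated. The SUZ12-AID groups did not overlap, the MTF2-AID groups did, and neither was called (adjusted p = 0.141 and 0.948). Myl3, the ventricular and slow essential light chain, rose in AID-JARID2 from few reads (34 reads in all libraries). It had 1.98 and 1.36 TPM in auxin cells against 0.214 and 0.721 TPM untreated (log2 fold change 0.87, adjusted p = 0.0251). Myl3 passed the filter only through these auxin libraries, with a mean of 0.913 TPM in SUZ12-AID auxin cells and less in each remaining group. Its call was lost without auxin replicate 1 (adjusted p = 0.166) or 2 (0.0522) or untreated replicate 1 (0.18).

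The cardiac myosin heavy chain genes Myh6 and Myh7 encode the motor of the thick filament and lie 3756 bases apart on chromosome 14. Myh7, the slow form of the embryonic ventricle, had 13.5 and 11.99 TPM in SUZ12-AID auxin cells, against 4.68 and 3.45 TPM untreated (log2 fold change 1.45, SE 0.165, adjusted p = 3.79e-04). This was the largest increase of a tested member in that line, and its call was lost only in the fit of that line alone (adjusted p = 0.0535). In AID-JARID2 Myh7 had 0.730 and 0.531 TPM with auxin, against 1.83 and 1.78 TPM untreated (log2 fold change -0.78, SE 0.165, adjusted p = 0.00426). In MTF2-AID it had 8.41 and 7.68 TPM with auxin and 8.64 and 6.75 TPM untreated, which overlapped. Myh6, the fast form of atria and adult mouse ventricle, averaged 4.01 ± 1.05 TPM in SUZ12-AID auxin cells and 1.69 ± 0.406 TPM in untreated cells (SD, n = 2 each). It rose by 0.89 on the log2 scale (adjusted p = 0.0176), a call lost without auxin replicate 1 (adjusted p = 0.106) or untreated replicate 2 (0.0765). In AID-JARID2 it did not follow Myh7 (log2 fold change 0.33, adjusted p = 0.277), at 0.487 to 0.764 TPM with auxin and 0.275 to 0.307 TPM untreated, which did not overlap. Coding sequences of the pair are 91.6% identical in GENCODE vM21, so reads may have been split between them by the counting. Exons of Myh7 overlap 3 genes of the opposite strand, and 12 of the 38 members have such an overlap. The libraries mark strand, but whether the counting used it is not given in the sources used here, so reads of overlapping genes may be mixed.

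**Figure D3:**
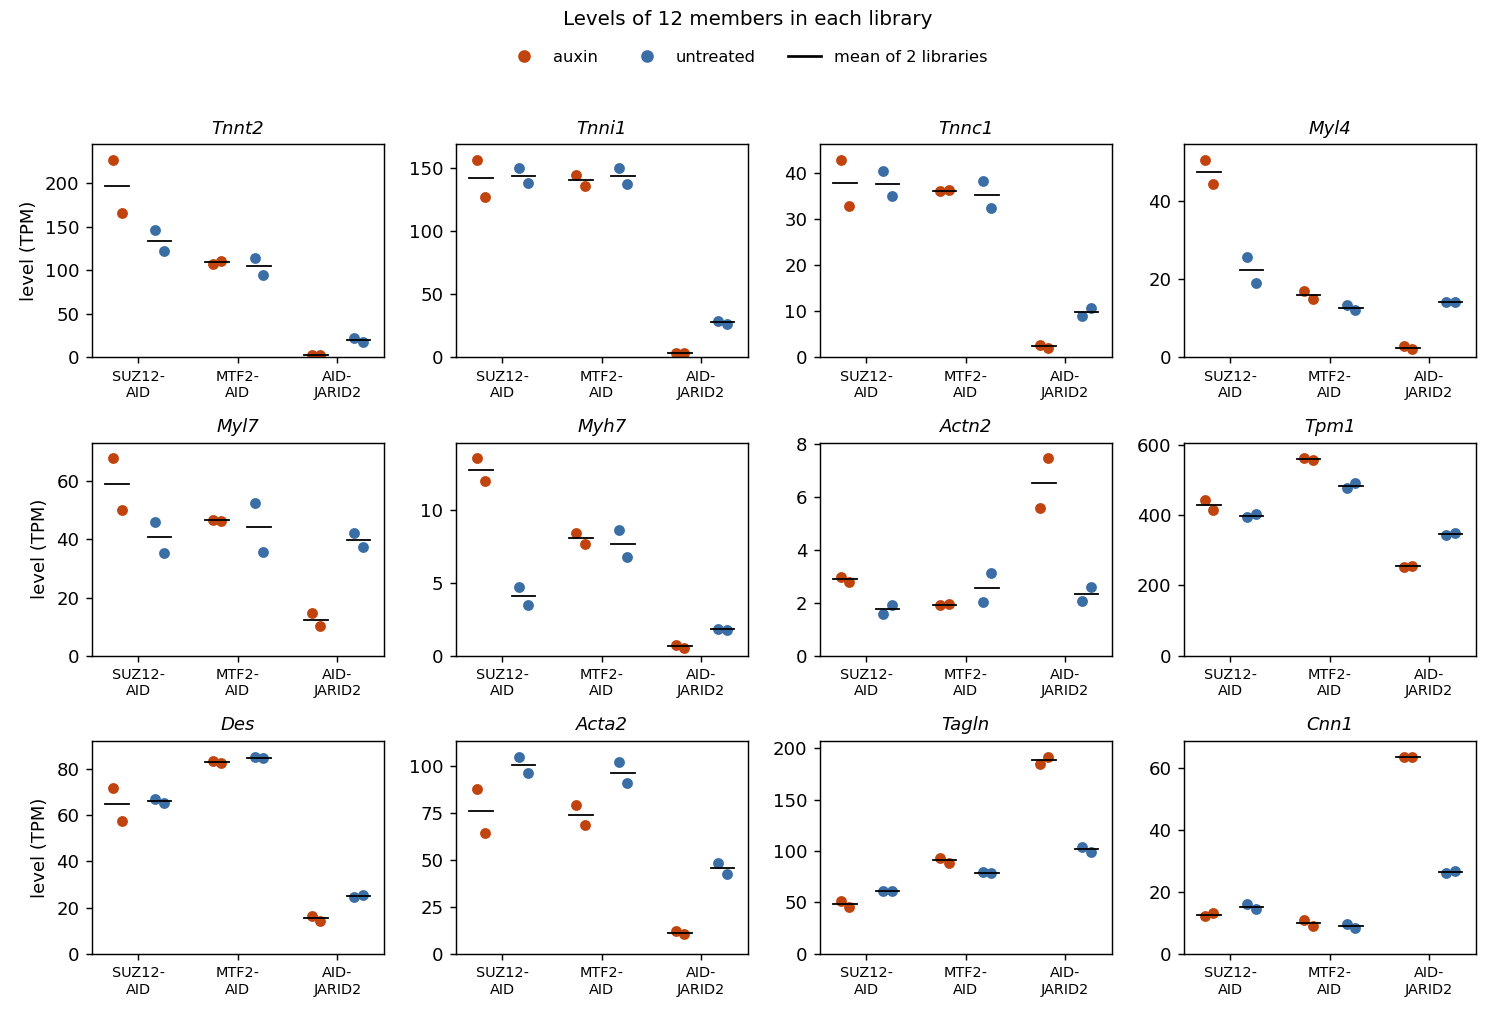
Levels in TPM (y axes start at 0) of 12 genes in each library, with auxin points left of untreated ones within each line and a bar at the mean of 2 libraries. Tnnt2, Tnni1 and Tnnc1 are lower in untreated AID-JARID2 than in the other lines and lower again with auxin, while Myl7 is lower there only with auxin, and Tagln and Cnn1 are highest in AID-JARID2 auxin cells.

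The Z-disc and filament genes did not move together. Actn2, sarcomeric alpha-actinin, which crosslinks actin at the Z-disc, had 5.59 and 7.47 TPM in AID-JARID2 auxin cells, against 2.06 and 2.603 TPM untreated (log2 fold change 1.17, SE 0.192, adjusted p = 9.43e-04). Both auxin libraries were the highest of all 12, and the call held in all 22 alternatives. In SUZ12-AID Actn2 had 2.98 and 2.79 TPM with auxin and 1.58 and 1.92 TPM untreated, without overlap and without a call (adjusted p = 0.102), and in MTF2-AID 1.91 and 1.96 TPM with auxin and 2.03 and 3.13 TPM untreated, again apart and not called (adjusted p = 0.74).

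Des, the muscle intermediate filament desmin, had 16.5 and 14.3 TPM in AID-JARID2 auxin cells, against 24.4 and 25.6 TPM untreated (log2 fold change -0.67, SE 0.0997, adjusted p = 5.13e-04). SUZ12-AID cells had 71.6 and 57.6 TPM with auxin and 67.0 and 65.4 TPM untreated, and in MTF2-AID 83.5 and 82.5 TPM with auxin and 85.2 and 84.5 TPM untreated. The SUZ12-AID groups overlapped, and the MTF2-AID groups stood apart by less than 1 TPM without a call (adjusted p = 0.971). Of the other Z-disc genes, Ldb3 ranged from 0.345 to 2.53 TPM, the nebulin-like gene Nebl from 0.592 to 5.02 TPM and the stretch-sensing LIM protein gene Csrp3 from 0 to 3.52 TPM, and none was called in an auxin comparison.

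Tpm1, alpha-tropomyosin, had 252 and 256 TPM in AID-JARID2 auxin cells, against 344 and 349 TPM untreated (log2 fold change -0.45, SE 0.0418, adjusted p = 2.14e-05). SUZ12-AID cells had 443 and 415 TPM with auxin and 394 and 402 TPM untreated, without overlap and without a call (adjusted p = 0.114). Tpm2, beta-tropomyosin, ranged from 44.9 to 64.8 TPM and was called in no auxin comparison.

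In AID-JARID2, skeletal actin rose and smooth muscle actins fell with auxin, and cardiac actin was not called. Acta1, skeletal alpha-actin, averaged 43.1 ± 2.95 TPM in AID-JARID2 auxin cells and 23.6 ± 1.67 TPM in untreated ones (SD, n = 2 each). It rose by 0.84 on the log2 scale (adjusted p = 0.0113), a call lost without auxin replicate 1 (adjusted p = 0.0696) or untreated replicate 2 (0.0685). Actc1, cardiac alpha-actin, averaged 33.1 ± 0.415 TPM with auxin and 46.3 ± 3.16 TPM untreated in that line, without overlap and without a call (log2 fold change -0.47, adjusted p = 0.119). The call appeared with the AID-JARID2 libraries fitted alone (adjusted p = 0.0107) or without untreated MTF2-AID replicate 1 (0.00713) or 2 (0.00679). In SUZ12-AID and MTF2-AID neither actin was called, with Acta1 at 6.82 to 21.2 TPM and Actc1 at 7.88 to 20.1 TPM.

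Acta2, smooth muscle alpha-actin, which early heart cells also use, had 12.03 and 10.35 TPM in AID-JARID2 auxin cells, against 48.4 and 42.6 TPM untreated (log2 fold change -1.93, SE 0.144, adjusted p = 4.32e-06). This was the deepest fall of a smooth muscle gene, and the call held in all 22 alternatives. In SUZ12-AID Acta2 had 87.7 and 64.2 TPM with auxin, against 105 and 96.4 TPM untreated, and in MTF2-AID 79.4 and 68.9 TPM with auxin, against 102 and 91.0 TPM untreated. Both pairs of groups stood apart without a call (log2 fold change -0.42, adjusted p = 0.0708, and -0.38, adjusted p = 0.425). In SUZ12-AID Acta2 was called without auxin replicate 1 (-0.64, adjusted p = 0.0133). Actg2, smooth muscle gamma-actin, averaged 6.00 ± 1.46 TPM in SUZ12-AID auxin cells and 11.25 ± 0.932 TPM in untreated ones, and 1.00 ± 0.107 TPM in AID-JARID2 auxin cells and 2.21 ± 1.05 TPM in untreated ones (SD, n = 2 each). It fell by 0.82 in SUZ12-AID (adjusted p = 0.0254) and by 0.64 in AID-JARID2 (adjusted p = 0.0432) on the log2 scale. The AID-JARID2 call was lost in 12 of 22 alternatives, with adjusted p up to 0.331, and the SUZ12-AID call in 6, with adjusted p up to 0.191, both highest when 1 library of the same line was left out.

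Summed over Acta1, Acta2, Actc1 and Actg2, muscle actin RNA was 91.7 and 85.1 TPM in AID-JARID2 auxin cells, against 123 and 112 TPM untreated. It was also lower with auxin in the other lines, at 115 ± 14.4 TPM in SUZ12-AID auxin cells against 146 ± 8.42 TPM untreated and at 97.3 ± 4.08 TPM in MTF2-AID auxin cells against 125 ± 13.9 TPM untreated (SD, n = 2 each, not tested). Within the AID-JARID2 sum Acta2 took 13.1% and 12.2% with auxin, against 39.3% and 38.03% untreated, and Acta1 averaged 48.7 ± 0.768% with auxin and 20.05 ± 0.069% untreated (SD, n = 2 each). In the 8 libraries of the other lines Acta2 took 61.3% to 79.2% and Acta1 6.81% to 20.3%. In AID-JARID2 the Acta1 and Acta2 shares of the auxin and untreated groups stood apart by more than the replicates did, while those of Actc1 and Actg2 differed by less than 3 percentage points. Coding sequences of these actins are 82.6% to 86.3% identical, and shared reads may have been split by the counting. Troponin T RNA from Tnnt1, Tnnt2 and the fast gene Tnnt3, which is not a member, summed to 5.88 and 6.78 TPM in AID-JARID2 auxin cells, against 34.6 and 31.3 TPM untreated, and troponin I RNA from Tnni1, Tnni3 and the fast gene Tnni2 to 8.88 and 10.3 TPM in auxin cells, against 41.6 and 40.3 TPM untreated. The share of Tnni3 was 56.8% and 61.8% with auxin and 29.6% and 31.4% untreated, against 1.33% to 3.67% in the other lines. Myh6 took 51.2% and 47.8% of the cardiac heavy chain sum in AID-JARID2 auxin cells and 14.4% and 13.4% in untreated ones, within sums of 1.49 and 1.02 TPM with auxin and of 2.13 and 2.05 TPM untreated.

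**Figure D4:**
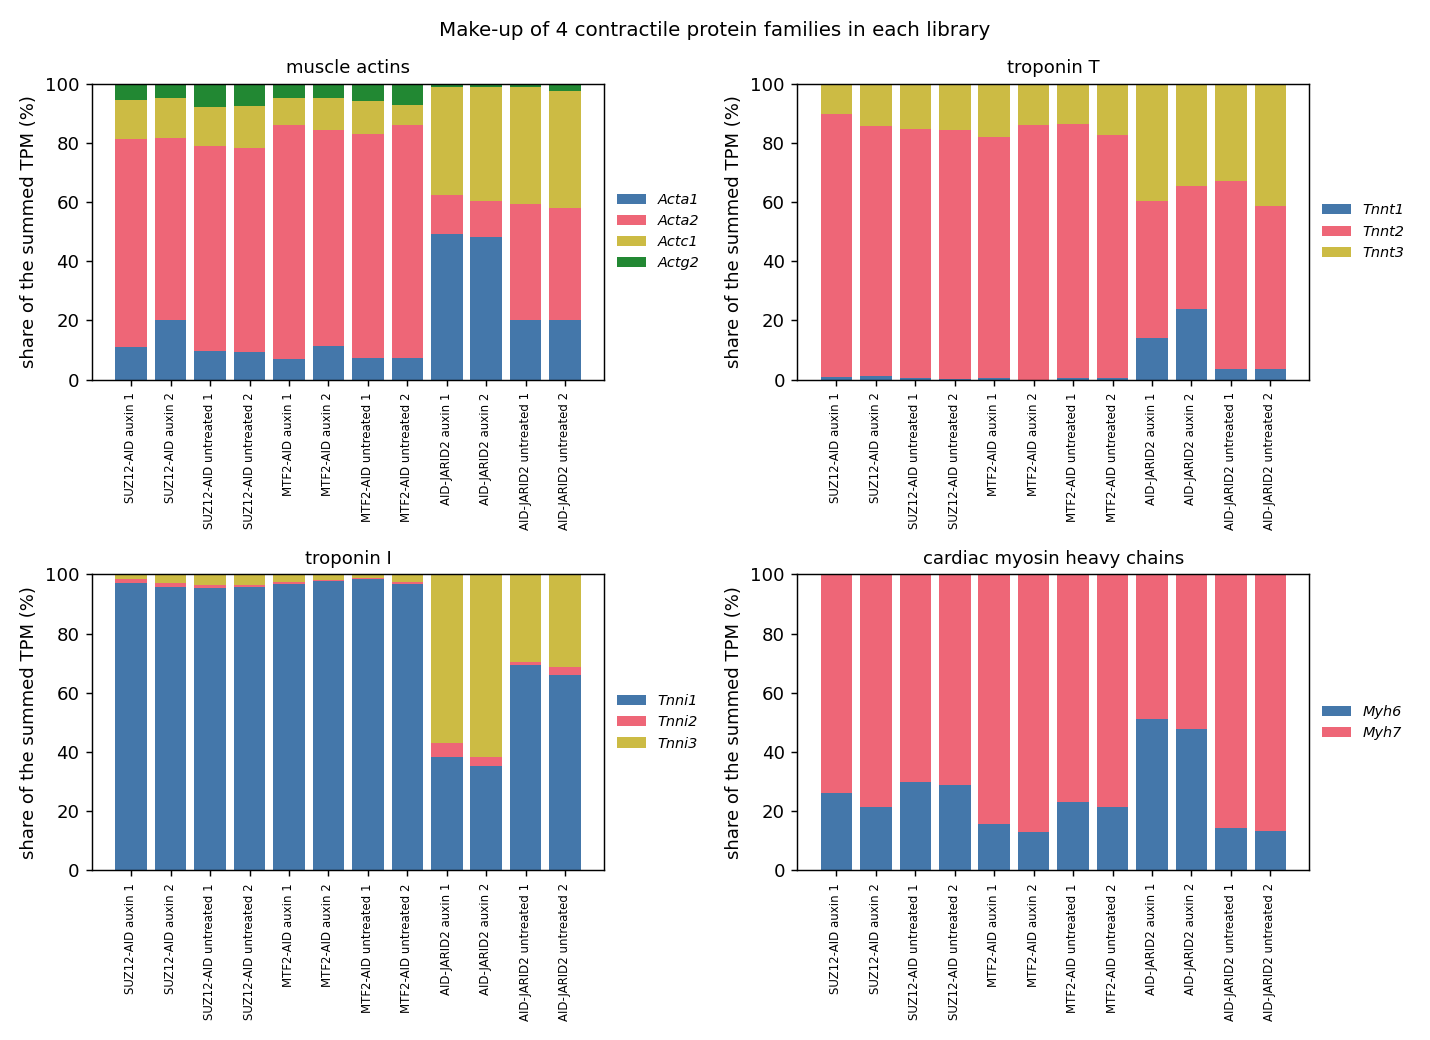
Share of each gene (y axis, percent of the summed TPM) within 4 protein families in each library (x axis), auxin left of untreated within each line. In AID-JARID2 the Acta2 share is 12.2% to 13.1% with auxin and 38.03% to 39.3% untreated, and the Tnni3 share 56.8% to 61.8% with auxin and 29.6% to 31.4% untreated.

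In AID-JARID2 calponin and transgelin rose with auxin, where smooth muscle actin fell. Tagln, transgelin or SM22-alpha, an actin-binding protein, had 185 and 192 TPM in AID-JARID2 auxin cells, against 104 and 99.6 TPM untreated (log2 fold change 0.88, SE 0.0673, adjusted p = 5.18e-06). In SUZ12-AID it had 51.6 and 45.4 TPM with auxin, against 61.5 and 60.7 TPM untreated (log2 fold change -0.33, SE 0.0673, adjusted p = 0.00766). In MTF2-AID it had 93.7 and 88.2 TPM with auxin and 79.4 and 78.3 TPM untreated, without a call (adjusted p = 0.344). The groups stood apart in all 3 lines, and the SUZ12-AID call was lost without auxin replicate 2 (-0.24, adjusted p = 0.0646). Exons of Tagln overlap 2 genes of the opposite strand.

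Cnn1, calponin, had 63.7 and 63.8 TPM in AID-JARID2 auxin cells, against 26.1 and 26.9 TPM untreated (log2 fold change 1.23, SE 0.108, adjusted p = 1.37e-05). The calls of Tagln and Cnn1 in AID-JARID2 held in all 22 alternatives. In SUZ12-AID Cnn1 had 12.1 and 13.2 TPM with auxin and 15.9 and 14.6 TPM untreated, without overlap (adjusted p = 0.137), and in MTF2-AID 10.9 and 9.07 TPM with auxin and 9.59 and 8.33 TPM untreated, which overlapped.

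Smtn, smoothelin, a smooth muscle cytoskeletal protein, had 56.9 and 58.7 TPM in AID-JARID2 auxin cells, against 67.9 and 71.6 TPM untreated (log2 fold change -0.27, SE 0.0686, adjusted p = 0.0122). In SUZ12-AID it had 71.5 and 68.0 TPM with auxin and 71.7 and 80.5 TPM untreated, and in MTF2-AID 56.9 and 55.1 TPM with auxin and 62.0 and 60.1 TPM untreated. None of the groups overlapped, and only AID-JARID2 was called, a call lost without auxin replicate 1 (adjusted p = 0.0799) or untreated replicate 2 (0.0892). Myl9, the smooth muscle regulatory light chain, fell in SUZ12-AID to 38.9 ± 1.48 TPM with auxin, against 59.3 ± 2.33 TPM untreated (SD, n = 2 each, log2 fold change -0.60, adjusted p = 3.97e-04), and in AID-JARID2 to 54.5 ± 3.60 TPM with auxin, against 65.6 ± 1.37 TPM untreated (-0.26, adjusted p = 0.013). The AID-JARID2 call was lost without auxin replicate 2 (adjusted p = 0.125) or untreated replicate 1 (0.0821). Myh11 stood at 0.1004 to 0.888 TPM.

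Of the tested calcium handling and channel genes Atp2a2, Ryr2, Cacna1c and Hcn4, the first 3 were called in AID-JARID2 and the last in SUZ12-AID. Atp2a2, the calcium pump SERCA2, which is expressed in many cell types, had 165 and 170.3 TPM in AID-JARID2 auxin cells, against 129 and 128 TPM untreated (log2 fold change 0.38, SE 0.0933, adjusted p = 0.0092), a call lost without auxin replicate 2 (adjusted p = 0.0592). In SUZ12-AID it had 111 and 124 TPM with auxin and 106 and 132 TPM untreated, and in MTF2-AID 219 and 205 TPM with auxin and 197 and 204.5 TPM untreated. The SUZ12-AID groups overlapped, the MTF2-AID groups stood apart by less than 1 TPM, and neither was called. Ryr2, the calcium release channel of the heart, averaged 0.235 ± 0.0522 TPM in AID-JARID2 auxin cells and 1.46 ± 0.340 TPM in untreated ones (log2 fold change -0.99, adjusted p = 0.00558), and the calcium channel gene Cacna1c 0.232 ± 0.0463 TPM in auxin cells and 0.922 ± 0.0833 TPM in untreated ones (-0.64, adjusted p = 0.0251; SD, n = 2 each). The Ryr2 call was lost without untreated replicate 1 (adjusted p = 0.0505) and that of Cacna1c without any of the 4 AID-JARID2 libraries (adjusted p = 0.077 to 0.126). Hcn4, the pacemaker channel, averaged 16.4 ± 1.89 TPM in SUZ12-AID auxin cells and 8.155 ± 2.53 TPM in untreated ones (log2 fold change 0.95, adjusted p = 0.00583), a call lost without auxin replicate 2 (adjusted p = 0.0577). Nppb, a natriuretic peptide gene with 53 reads in all libraries, averaged 2.15 ± 0.519 TPM in SUZ12-AID auxin cells and 0.404 ± 0.0763 TPM in untreated ones (log2 fold change 1.16, adjusted p = 0.0251). This call was lost without any of the 4 SUZ12-AID libraries (adjusted p = 0.0578 to 0.121).

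The 7 genes with a CArG box in a promoter window had calls in both directions in AID-JARID2. Members without a match or without a window, among them Acta2, Actg2, Tagln and Cnn1, are outside this set, and sites beyond the windows were not searched. Acta1 and Myl3 rose, Myl7 and Myl9 fell, and Actc1, Ldb3 and Nebl were not called, where 19.5% of all genes rose and 17.0% fell. Myl3 had passed the filter only through the auxin libraries of this line. So few genes cannot tell the set apart from all genes. In SUZ12-AID only Myl9 of the set was called, as lower, where 15.1% of all genes rose and 4.05% fell. None of the set was called in MTF2-AID. Srf, which encodes the factor that binds the box, had log2 fold changes of 0.10 in AID-JARID2 (adjusted p = 0.23) and -0.27 in SUZ12-AID (adjusted p = 0.013), with 100.2 ± 0.568 TPM in AID-JARID2 auxin cells and 93.1 ± 3.57 TPM in untreated ones. Myocd, its heart and smooth muscle cofactor, averaged 0.542 ± 0.0158 TPM in AID-JARID2 auxin cells and 1.36 ± 0.0231 TPM in untreated ones (log2 fold change -0.61, adjusted p = 0.0089).

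Of 26 symbols of muscle regulators, 2 of them newer names of Mkl1 and Mkl2, 24 were in the table and 22 were tested. In AID-JARID2 1 rose and 14 fell, where 19.5% of all genes rose and 17.0% fell. Hand1, Hand2 and Tbx20, transcription factors of the early heart, fell by 4.23, 3.23 and 2.98 on the log2 scale (adjusted p = 6.34e-10, 1.63e-08 and 4.21e-07). Gata4 fell to 26.2 ± 4.34 TPM with auxin, against 88.7 ± 0.837 TPM untreated, and Mef2c to 1.99 ± 0.179 TPM with auxin, against 6.25 ± 0.305 TPM untreated (SD, n = 2 each; adjusted p = 1.55e-06 and 1.45e-05). In SUZ12-AID 8 rose and 2 fell, where 15.1% of all genes rose and 4.05% fell. Nkx2-5, a homeobox factor of cardiac precursors, rose by 3.06, the homeodomain-only gene Hopx by 1.79 and Hand2 by 1.71 on the log2 scale, and Gata4 and Mef2c rose by 0.46 and 0.43 (adjusted p = 0.0168 and 0.024). Myocd did not pass there (0.44, adjusted p = 0.0682). In MTF2-AID 0 of 22 were called, with 2 at an unadjusted p under 0.05.

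As above, 19.5% of all genes rose and 17.0% fell in AID-JARID2, and 15.1% rose and 4.05% fell in SUZ12-AID. Of 29 other striated muscle genes 15 were tested. In AID-JARID2 1 rose and 8 fell, among them Tnnt3, fast troponin T (2.34 ± 0.0145 TPM with auxin, 12.1 ± 1.11 TPM untreated, log2 fold change -1.97, adjusted p = 2.54e-06), and Jph2, which couples the calcium channels of the heart cell (log2 fold change -1.32, adjusted p = 2.17e-05). The gene that rose was Tnnc2, fast troponin C, at 2.75 ± 0.459 TPM with auxin and 0.573 ± 0.369 TPM untreated (SD, n = 2 each). In SUZ12-AID 3 rose and 0 fell, led by the small heat shock protein gene Cryab at 103 ± 8.84 TPM with auxin and 32.8 ± 6.14 TPM untreated (log2 fold change 1.63, adjusted p = 1.82e-04) and including the thin filament capping gene Tmod1 (0.57, adjusted p = 0.0389). Of 13 other smooth muscle genes 12 were tested, with 2 higher and 3 lower in AID-JARID2 and 1 higher and 1 lower in SUZ12-AID. These smooth muscle counts were near the shares of all genes. The integrin gene Itga8 fell by 0.99 and the tropomyosin gene Tpm4 by 0.26 in AID-JARID2, and Tagln2 rose by 0.45 there and by 0.57 in SUZ12-AID, where the potassium channel subunit gene Kcnmb1 fell by 0.42 on the log2 scale. Of 15 nonmuscle actin and myosin genes 9 rose and 1 fell in AID-JARID2, led by the focal adhesion genes Zyx and Vcl and the nonmuscle actinin gene Actn4 (0.88, 0.56 and 0.54). In SUZ12-AID 0 rose and 1 fell (Pfn1, by 0.21), and in MTF2-AID 0 genes of these 3 lists were called with limma, where 2 striated, 1 smooth muscle and 0 nonmuscle genes had an unadjusted p under 0.05.

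The auxin effects differed between lines in a direct test of the difference. Between AID-JARID2 and SUZ12-AID 15 of the 30 tested genes differed, where 24.0% of all genes did, with 11 cardiac genes all lower in AID-JARID2. The most negative were those of Myl4 (-3.19 on the log2 scale, adjusted p = 9.3e-06), Tnnt2 (-2.98, adjusted p = 1.42e-05) and Tnni1 (-2.64, adjusted p = 1.58e-06). Among smooth muscle genes Cnn1 (1.49), Tagln (1.21) and Myl9 (0.33) had the higher effect in AID-JARID2 and Acta2 the lower one (-1.51). Between AID-JARID2 and MTF2-AID 16 differed, where 24.3% of all genes did, and between MTF2-AID and SUZ12-AID 7 did, where 11.1% of all genes did. The 7 were Tnnt1, Myh6, Myh7, Nppb and Hcn4, lower in MTF2-AID, and Tagln and Myl9, higher in MTF2-AID. This count became 3 without MTF2-AID auxin replicate 2, untreated replicate 1 or SUZ12-AID auxin replicate 1, and 4 without untreated MTF2-AID replicate 2 or SUZ12-AID auxin replicate 2.

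The lines also differed without auxin. In untreated cells 19 of the 30 tested genes differed between AID-JARID2 and SUZ12-AID, where 27.6% of all genes did, with 12 cardiac genes lower and 3 higher and 2 smooth muscle genes lower and 2 higher. Tnnt2 averaged 19.6 ± 3.38 TPM in untreated AID-JARID2 and 134 ± 16.7 TPM in untreated SUZ12-AID (log2 difference -2.72, adjusted p = 2.38e-06), and Tnni1 27.7 ± 1.58 TPM in AID-JARID2 and 144 ± 8.53 TPM in SUZ12-AID (-2.34, adjusted p = 3.71e-07; SD, n = 2 each). Tnnc1 (-1.83), Des (-1.37) and Actg2 (-1.97) were lower in AID-JARID2 as well, and Actc1 (1.17), Tnni3 (1.07), Cnn1 (0.76), Acta1 (0.74) and Tagln (0.73) higher. Against untreated MTF2-AID, 19 genes differed too, where 33.4% of all genes did, with Actc1 at 46.3 ± 3.16 TPM in AID-JARID2 and 11.4 ± 5.04 TPM in MTF2-AID (1.99, adjusted p = 8.26e-05). Both comparisons use the same untreated AID-JARID2 libraries. Pluripotency markers summed to 794 to 800 TPM in untreated AID-JARID2, against 220.3 to 235 TPM in the MTF2-AID cells and 179 to 199 TPM in the SUZ12-AID cells, and 5 of 10 were called higher and 4 lower against MTF2-AID and 5 higher and 1 lower against SUZ12-AID. Endothelial markers summed to 214 to 224 TPM in untreated AID-JARID2, against 300 to 301 TPM in MTF2-AID (1 of 10 called higher, 8 lower) and 242 to 269 TPM in SUZ12-AID (1 higher, 9 lower). Of 9 tested fibroblast and mesenchyme markers 1 was higher and 6 lower against MTF2-AID, and 1 higher and 5 lower against SUZ12-AID. Cardiac precursor markers summed to 2701 to 2784 TPM in untreated AID-JARID2. They summed to 1719 to 1731 TPM in untreated MTF2-AID and 2629 to 2944 TPM in untreated SUZ12-AID. Of 11 tested, 7 were called higher and 2 lower against MTF2-AID, and 4 higher and 2 lower against SUZ12-AID. Of 10 surface ectoderm markers 6 were higher and 3 lower against MTF2-AID, and 4 higher and 4 lower against SUZ12-AID. The part of these markers in the differences was not tested.

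Between untreated MTF2-AID and untreated SUZ12-AID 11 genes differed, where 8.65% of all genes did. Atp2a2 averaged 201 ± 5.02 TPM in MTF2-AID and 119 ± 18.5 TPM in SUZ12-AID (log2 difference 0.76, adjusted p = 0.00143), and Myh7 was also higher (0.78), while Actc1 (-0.81), Myl4 (-0.75) and Cnn1 (-0.71) were lower. Of 10 endothelial markers 6 were called higher and 1 lower in MTF2-AID, and of 10 surface ectoderm markers 4 were lower, and their part in these differences was not tested. With the 4 untreated libraries fitted alone 0 were called, and the count became 5 without MTF2-AID replicate 1, 4 without MTF2-AID replicate 2 and 7 without SUZ12-AID replicate 1.

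**Figure D5:**
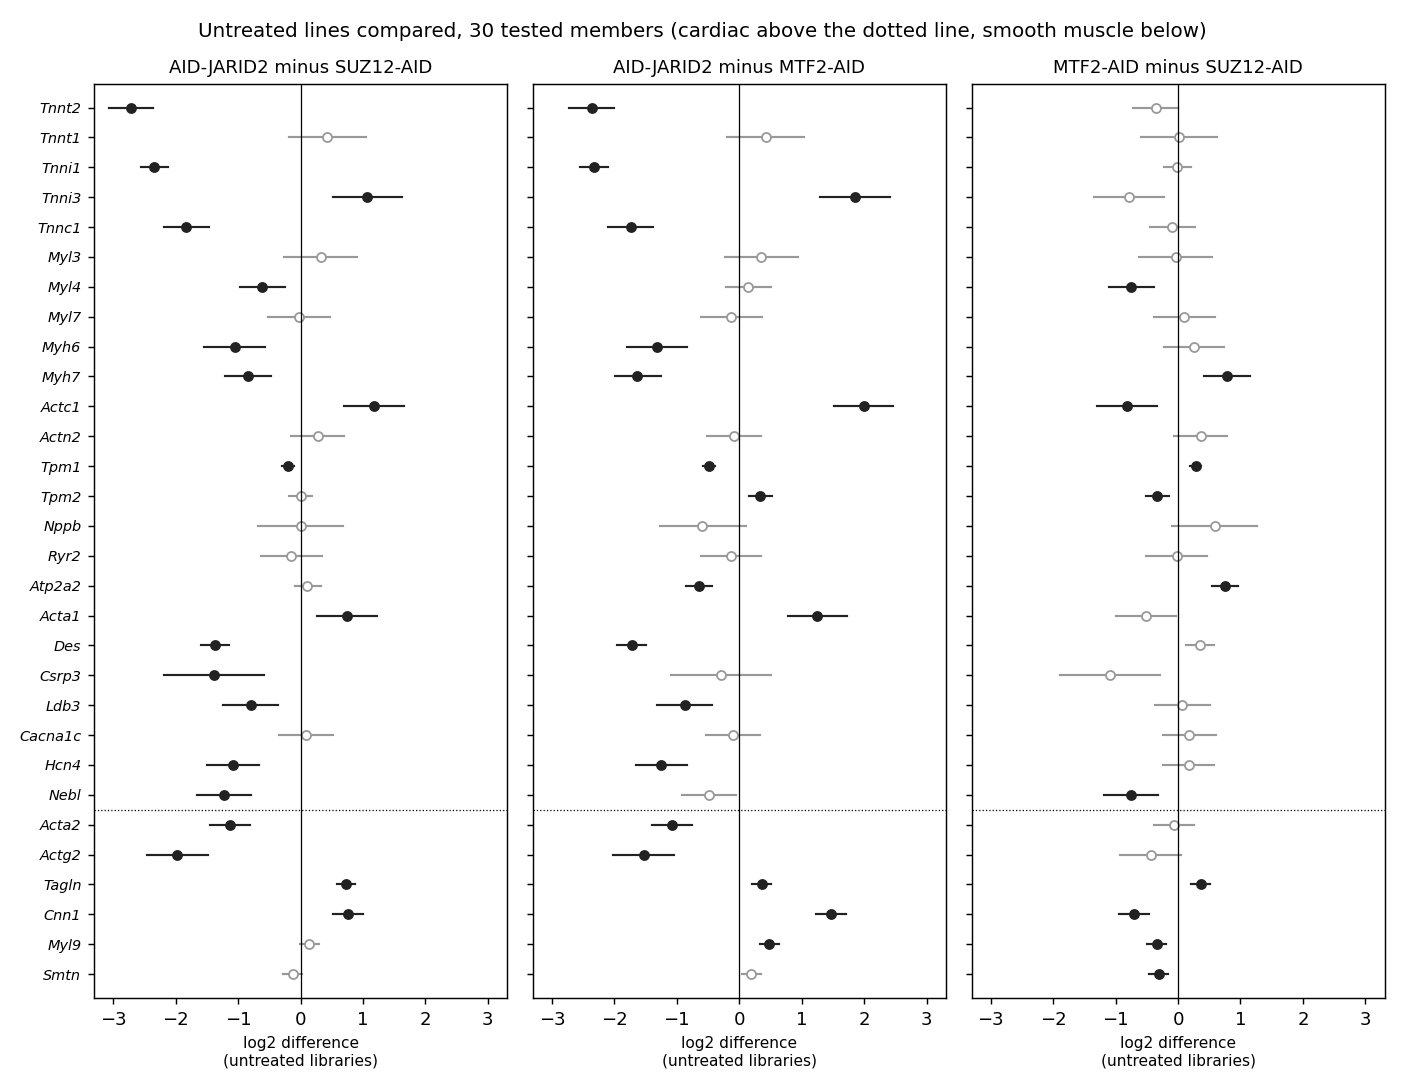
Log2 difference between untreated lines (x axis) for the 30 tested genes (y axis), with 95% confidence intervals of the limma fit and filled points for adjusted p under 0.05. Tnnt2 and Tnni1 lie between -2.72 and -2.33 in both comparisons of AID-JARID2, with Actc1 at 1.17 and 1.99.

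The auxin comparison in AID-JARID2 uses these same untreated libraries, so its values are only set beside the differences between untreated lines. Between untreated lines Tnnt2 had log2 differences of -2.72 from SUZ12-AID and -2.36 from MTF2-AID, and its auxin comparison gave -2.44. Acta2 had -1.13 and -1.07 between untreated lines and -1.93 with auxin. Cnn1 had 0.76 and 1.47 between untreated lines and 1.23 with auxin. Myl7 was not called between untreated lines and fell by 1.62 with auxin, while Actc1, at 1.17 and 1.99 between untreated lines, was not called with auxin in AID-JARID2.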

How the data were processed

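Polyadenylated RNA was sequenced from dUTP libraries that mark strand, per the labels' protocols. The authors deposited TPM values with 12 library columns, all used, which were matched to samples by line, treatment and replicate in their names. STAR 2.6.1d and mm10 are named in the submitters' processing notes, while for the step that produced TPM the program, annotation and strand setting were not given in the sources used here. TPM keeps no depth of its own: the reads implied were taken as the smallest whole numbers that fit the steps of each gene's values.

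The filter required 1 TPM or more in 2 or more libraries (15663 genes). limma 3.58.1 in R 4.3.3 was fitted to log2(TPM + 1) with 1 term per group over all 12 libraries (eBayes with a trend, 6 residual and 3.9 prior degrees of freedom), two-sided, with Benjamini-Hochberg adjustment over all genes kept. Fold changes are on that scale, which understates changes of low genes, and p-values cover only the spread between replicates, which the series calls biological without naming separate cultures. The fit was tested on simulated data. Positions, overlaps and coding identity come from GENCODE vM21 (Biopython 1.88), promoter windows from RefSeq. All 38 members are named, with values per library where a call reached a log2 change of 1 and 5 TPM or the mean was among the 8 highest, and up to 3 genes per line of each other list with at least 2 TPM. Members and lists were chosen with earlier results of these data known. The 22 alternatives change the pseudocount, filter, scaling, libraries fitted, variance weights, trend or replicate block, or leave out 1 library.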

Additional observations from a re-analysis of the deposited data

Results flagged for a closer look

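The auxin effects of single genes that differed between 2 lines, in limma's test of the difference itself at an adjusted p under 0.05 over all genes, are given here as differences of log2 fold changes. Each group had 2 libraries, too few to look for outlying libraries, and no data outside the comparisons were left unused.

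AID-JARID2 minus SUZ12-AID was negative for Myl4 (-3.19), Tnnt2 (-2.98), Tnni1 (-2.64), Myh7 (-2.23), Myl7 (-2.14), Tnnc1 (-1.70), Acta2 (-1.51), Hcn4 (-1.21), Cacna1c (-1.11), Ryr2 (-1.07), Des (-0.62) and Tpm1 (-0.55). It was positive for Cnn1 (1.49), Tagln (1.21) and Myl9 (0.33). For Tnnt2, Myl4, Myh7 and Tagln both lines had a call of their own, in opposite directions. Myl9 fell in both lines, further in SUZ12-AID.

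AID-JARID2 minus MTF2-AID was negative for Tnni1 (-2.63), Tnnt2 (-2.51), Myl4 (-2.43), Tnnc1 (-1.74), Myl7 (-1.72), Acta2 (-1.55), Ryr2 (-1.30), Tnni3 (-1.22), Myh7 (-0.85), Tpm1 (-0.65), Des (-0.64) and Myl9 (-0.32). It was positive for Actn2 (1.44), Cnn1 (1.09), Acta1 (0.95) and Tagln (0.68). These genes were all called in AID-JARID2 and none in MTF2-AID.

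MTF2-AID minus SUZ12-AID was negative for Nppb (-1.79), Tnnt1 (-1.43), Myh7 (-1.39), Myh6 (-1.34) and Hcn4 (-0.95). It was positive for Myl9 (0.66) and Tagln (0.53).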

How the results depend on the processing

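In 22 alternatives 0 of the 31 single-gene calls changed direction. Of the 21 calls in AID-JARID2, 11 held in every alternative, and of the 10 in SUZ12-AID none did. In SUZ12-AID the 7 cardiac genes called higher became 4 with a filter of 5 TPM, which leaves fewer genes, 4 with quantile normalization, 0 with the line's libraries alone, 3 with a variance weight per line and 3 to 7 without 1 library. The 3 smooth muscle genes called lower became 0 with the line alone and 1 to 4 without 1 library. The 0 cardiac genes called lower became 1 with quantile normalization (Tnni3) and 0 to 1 without 1 library, and the 0 smooth muscle genes called higher became 1 with no filter (Myh11). In MTF2-AID 1 cardiac gene (Tpm1) was called higher with a variance weight per line. In AID-JARID2 the 4 cardiac genes called higher became 2 to 4 and the 4 smooth muscle genes called lower 2 to 4 without 1 library. The 7 genes that differed between MTF2-AID and SUZ12-AID became 4 with a pseudocount of 0.1, 4 with a filter of 5 TPM, 4 with those lines alone, 4 with a variance weight per line and 3 to 7 without 1 library. The 11 that differed between these lines untreated became 0 with those libraries alone and 4 to 11 without 1 library. Apart from the filter, the cause was not tested. Every other count stayed within 1.5 times its value.

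Deviations of same-numbered libraries of different groups correlated at -0.053 to 0.096 over all tested genes. Such values cannot exclude a batch that same-numbered libraries share in some genes. With the number as a replicate block, cardiac genes called higher in SUZ12-AID were 8 (Myl7 added, adjusted p = 0.0188) and smooth muscle genes called lower 4 there (Acta2 added, adjusted p = 0.00665) and 3 in AID-JARID2 (Actg2 lost, adjusted p = 0.0527). Genes near 1 TPM such as Myl3, Nppb and Tnnt1 rest on 34 to 107 reads over all libraries, so their values carry large counting error.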
